A study of Mus musculus with 13 samples.

Results

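The 34 genes described here encode the enzymes and carriers of one-carbon metabolism and the proteins that write and remove DNA methylation, out of 32285 genes in the count tables. The rule takes them by name, from what their products do, and uses no measured value, though the list was chosen with earlier results of these data known. By role they are 5 genes of folate uptake and retention, 6 of the folate cycle, 3 of nucleotide synthesis, 7 of the methionine cycle, 6 of the choline and betaine route, 4 of DNA methylation and 3 of demethylation. All 34 were found in the tables, and 31 passed the filter on low counts in the epithelial comparison. Bhmt, Bhmt2 and Dmgdh did not pass it.

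Folate enters a cell through carriers, is held there by a chain of glutamates and carries single carbons that serine, through serine hydroxymethyltransferase, mostly supplies. These carbons go to purines, to thymidylate and to methionine, and methionine is turned into S-adenosylmethionine, the methyl donor of nearly all methyltransferases, DNA methyltransferases included. Choline, through betaine, is another source of the methyl group of methionine, best known from liver and kidney. In the intestine the crypts divide throughout life, so both the nucleotide branch and the upkeep of methylation at each DNA copy are in constant use there.

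The libraries are droplet-based scRNA-seq of 10 colon tumors and 3 samples of adjacent mucosa from 3 C57BL/6J mice with the genotype ApcMin/+; p16cis/cis, which joins an Apc mutation that gives rise to intestinal tumors with an epimutation of p16. All 13 libraries came from animals on the supplemented diet, which adds the methyl donors folic acid, vitamin B12, choline and betaine, given to the dams and to the offspring for life, so the data hold no comparison of diets. Mouse A, 24 weeks old, gave mucosa 2 and tumors 5 to 8, mouse B, 23 weeks old, gave mucosa 3 and tumors 9 and 10, and mouse C, 20 weeks old, gave mucosa 1 and tumors 1 to 4. Both alleles are germline and are carried by the mucosa as well as by the tumors. The mucosa was dissociated with EDTA and TrypLE and the tumors with a tumor dissociation kit, so tissue and protocol cannot be told apart in any comparison of the tissues.

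The libraries held between 57221300 and 116133079 unique molecular identifiers (UMIs), and 108500 of 137591 barcodes were kept as cells. The tissues differed in quality measures without overlap, with 4.29 to 11.5% of barcodes over the limit of 25% mitochondrial UMIs in tumors and 14.3 to 28.9% in mucosa, and median depths of 3606 to 4989 and 7198 to 9519 UMIs per cell. A mitochondrial limit of 10%, run as an alternative, left 684 to 1560 epithelial cells per tumor in place of 1243 to 2300 and 2292 to 5845 per mucosa library in place of 2515 to 7278. The part of these measures in the tissue differences was otherwise not tested. No 2 libraries shared more than 0.377% of their barcodes. Epithelial cells, recognised by their markers, were 16.9 to 27.5% of the cells in tumors and 51.1 to 77.4% in mucosa. Within the epithelium, goblet-like cells were 0.51 to 7.26% in tumors and 21.8 to 47.2% in mucosa, and tumor epithelial-like cells were 33.4 to 82.8% in tumors and at most 0.20% in mucosa. The labels give 7 libraries as female, and libraries of mouse A and of mouse C carry both labels. All 13 libraries, whatever their label, held 6261 to 10202 UMIs of Y-linked genes and at most 8 of Xist, so sex was not used.

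To compare tumor with mucosa in the compartment where the tumors arise, UMIs were summed over the epithelial cells of each library and tested with edgeR's quasi-likelihood test with Benjamini-Hochberg adjustment over all genes. Levels below are scaled CPM, that is UMI counts set to a common library total after TMM scaling, and the message is counted at its 3′ end, so levels of different genes are not set against each other. Of the 31 members tested, 19 passed an adjusted p of 0.05, 9 higher and 10 lower in tumors. Over all 15527 genes tested, 63.6% passed, 33.4% higher and 30.1% lower, so the share of members that differed was close to that of all genes. The median log2 fold change was -0.12 over the members and 0.04 over all genes. Without TMM scaling, the split over all genes changed from 5191 higher and 4679 lower to 6913 higher and 3105 lower, the median over all genes moved to 0.30, and 11 members were higher and 4 lower. The count of members fell to 13, 7 higher and 6 lower, without mucosa 2 and to 14, 7 higher and 7 lower, without mouse A. Members that passed in every alternative setting were Slc46a1, Mthfd1l, Shmt1, Mtr, Mat2b, Cbs, Dnmt3b and Tet2.

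**Figure D1:**
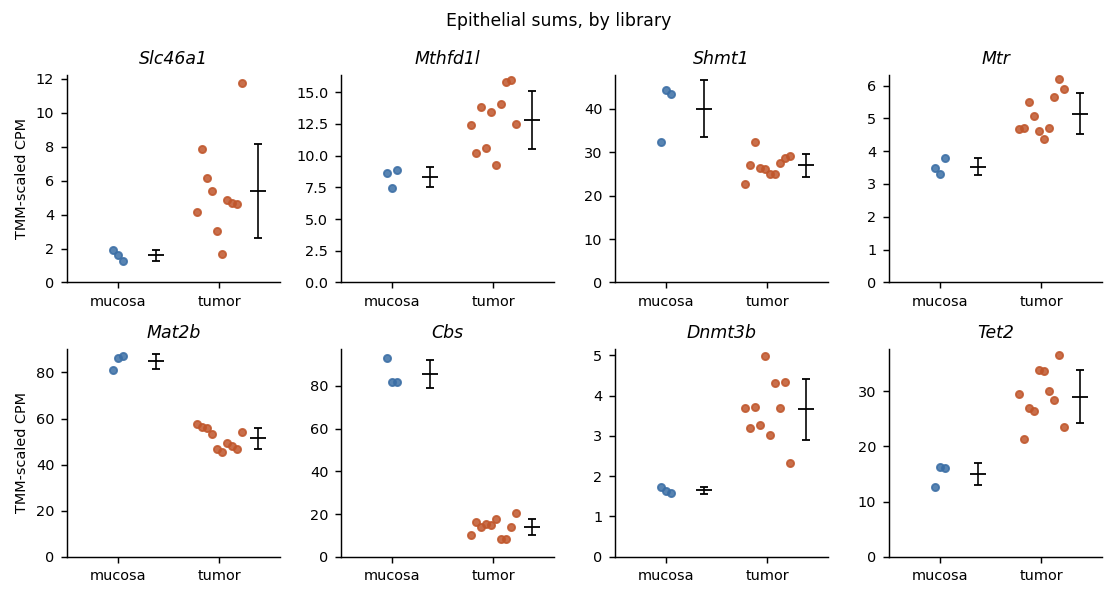
Level of the 8 members that passed in every alternative in the epithelial cells of each library, in TMM-scaled CPM, with 1 point per library for the 3 mucosa samples and the 10 tumors and bars for the mean with its SD. Cbs lies between 81.9 and 93.1 in mucosa and between 8.36 and 20.3 in tumors, while Dnmt3b and Tet2 lie higher in all 10 tumors than in any mucosa library.

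Among the genes of folate uptake and retention, 1 of 5 was higher in tumors and 2 were lower. Slc46a1, the proton-coupled folate transporter that takes up dietary folate in the gut, measured 1.90, 1.63 and 1.28 scaled CPM in mucosa 1, 2 and 3. Tumors 1 to 10 held 4.17, 7.86, 6.13, 5.41, 3.03, 1.68, 4.85, 4.69, 4.63 and 11.7 scaled CPM. Of the 10 tumors, 9 lay above all mucosa and tumor 6 lay within it, a log2 fold change of 1.76 ± 0.45 (SE, adjusted p = 0.0038). Slc19a1, the reduced folate carrier, was lower in tumors, at 9.64, 13.3 and 11.3 scaled CPM in the mucosa libraries and 7.02, 7.67 and 11.1 (lowest, median and highest) in the tumors, with 9 of 10 tumors below the mucosa range (log2 fold change -0.49 ± 0.13, adjusted p = 0.0059). Fpgs, which adds the glutamates that hold folate in the cell, measured 18.5, 13.7 and 14.7 scaled CPM in mucosa and 8.23, 10.4 and 13.2 in tumors, and the groups did not overlap (-0.54 ± 0.15, adjusted p = 0.0066). The call for Slc19a1 was lost without mucosa 2 (adjusted p = 0.056) or mouse A (adjusted p = 0.20) and that for Fpgs without mucosa 1 (adjusted p = 0.057), and both were lost without TMM scaling (-0.23, adjusted p = 0.13 and -0.29, adjusted p = 0.096).

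Ggh, which removes those glutamates in the lysosome, measured 84.4, 67.8 and 89.5 scaled CPM in mucosa and 32.3, 65.5 and 161 in tumors, a spread that covered the mucosa on both sides (-0.12 ± 0.37, adjusted p = 0.79). Folr1, a folate receptor held in the membrane by a lipid anchor, was at 1.74, 0.967 and 0.914 scaled CPM in mucosa, and 9 tumors lay between 0.030 and 0.186, from 1 to 8 UMIs each. Tumor 6 alone reached 2.11 scaled CPM. The difference did not pass with all libraries (-2.08 ± 0.93, adjusted p = 0.066) and passed without tumor 6 (-3.63, adjusted p = 2.1e-05) and with the mouse as a block (-2.73, adjusted p = 0.030) or the tumors of each mouse summed (-2.21, adjusted p = 0.021).

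The folate cycle held 2 members that were higher and 3 that were lower, and the mitochondrial enzymes did not move together. Mthfd1l, the mitochondrial formyltetrahydrofolate synthetase that releases formate, measured 8.59, 7.41 and 8.88 scaled CPM in mucosa and 9.23, 12.98 and 15.96 in tumors. All 10 tumors lay above the mucosa (0.63 ± 0.16, adjusted p = 0.0039). Shmt2, the mitochondrial serine hydroxymethyltransferase, measured 12.2, 19.2 and 19.1 scaled CPM in mucosa and 18.8, 22.2 and 26.8 in tumors (0.42 ± 0.14, adjusted p = 0.021), with 9 tumors above all mucosa, and its call was lost without mucosa 1 (0.23, adjusted p = 0.14). Mthfd2, the mitochondrial dehydrogenase and cyclohydrolase that acts between them, went the other way. It was at 17.9, 27.9 and 19.2 scaled CPM in mucosa and at 11.4, 13.1 and 16.5 in tumors, with no overlap (-0.67 ± 0.14, adjusted p = 0.0012). With the goblet-like clusters left out, both Mthfd2 (-0.32, adjusted p = 0.15) and Shmt2 (0.21, adjusted p = 0.17) lost their calls.

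Mthfd2l, a relative of Mthfd2, measured 46.3, 36.8 and 48.4 scaled CPM in mucosa and 19.3, 28.2 and 50.3 in tumors, with 9 of 10 tumors below the mucosa (-0.57 ± 0.23, adjusted p = 0.047). This call stood just inside the threshold and was lost when any mucosa library, or any of tumors 1 and 3 to 9, was left out (adjusted p up to 0.16), and without TMM scaling (-0.32, adjusted p = 0.21). In the cytosol, Shmt1, which moves carbon between serine and glycine, was at 32.4, 44.3 and 43.4 scaled CPM in mucosa and at 22.6, 26.7 and 32.4 in tumors (-0.57 ± 0.11, adjusted p = 4.3e-04). Only tumor 3 touched the mucosa range. Mthfd1, the trifunctional enzyme of the cytosol, measured 24.8, 29.0 and 32.2 scaled CPM in mucosa and 19.4, 22.5 and 30.3 in tumors and did not pass (-0.29 ± 0.14, adjusted p = 0.088), but passed without tumor 3 (-0.33, adjusted p = 0.036).

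**Figure D2:**
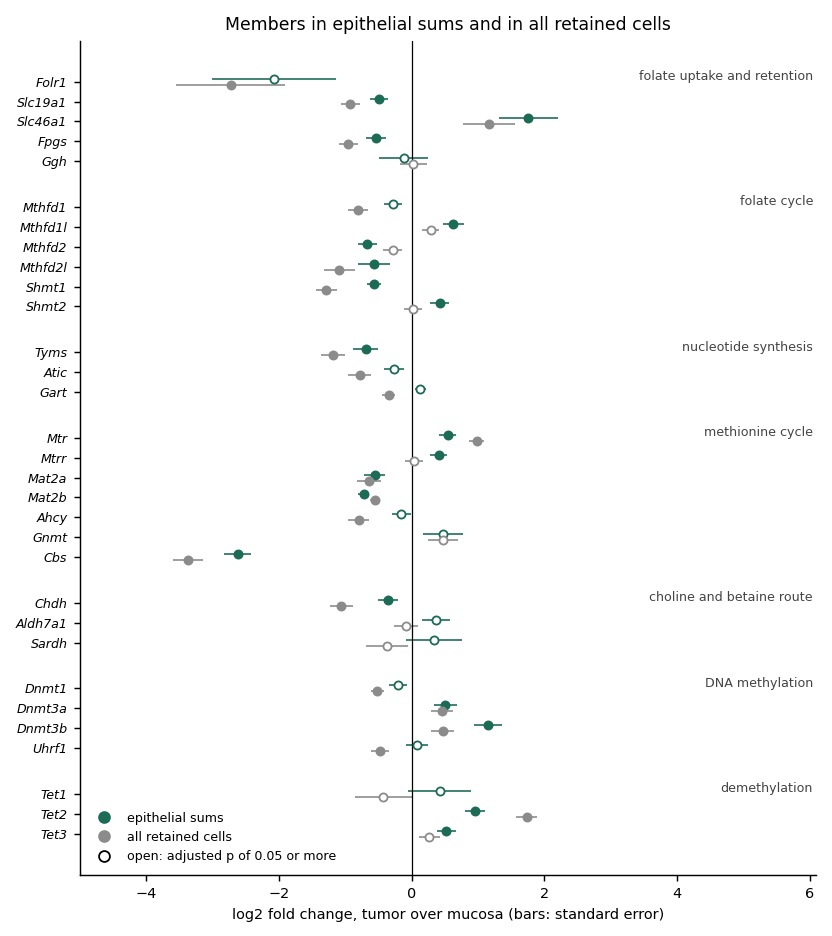
Log2 fold change of tumor over mucosa for each tested member, grouped by role, in the epithelial sums and in all retained cells, with bars of 1 SE and open points where the adjusted p is 0.05 or more. In the epithelial sums Cbs stands at -2.62, Slc46a1 at 1.76 and Dnmt3b at 1.15, and the other members that passed lie between -0.73 and 0.95.

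Of the 3 nucleotide genes, 1 differed. Tyms, thymidylate synthase, which makes the thymine nucleotide for DNA, was at 82.4, 111 and 119 scaled CPM in mucosa and at 45.1, 60.6 and 93.0 in tumors, with 9 of 10 tumors below the mucosa (-0.70 ± 0.19, adjusted p = 0.0065). Its call was lost without TMM scaling (-0.44, adjusted p = 0.052) and without mouse A (-0.58, adjusted p = 0.093). Atic, which closes the purine ring, measured 58.1, 106 and 79.4 scaled CPM in mucosa and 56.3, 65.4 and 84.3 in tumors (-0.27 ± 0.15, adjusted p = 0.13), and it passed without mucosa 1 (-0.46, adjusted p = 0.011). Gart, a purine enzyme that uses formyl folate, measured 29.8, 31.8 and 32.1 scaled CPM in mucosa and 30.9, 34.6 and 37.6 in tumors (0.13 ± 0.08, adjusted p = 0.16), and it passed as higher without TMM scaling (0.39, adjusted p = 0.0014).

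The methionine cycle held the largest difference among the members that passed with all libraries and the filter on low counts. Folr1 with the mouse as a block (-2.73) and Bhmt with no filter on low counts (-4.03) went further. Cbs, cystathionine beta-synthase, which draws homocysteine out of the cycle towards cysteine, was at 93.1, 82.0 and 81.9 scaled CPM in mucosa. Tumors 1 to 10 held 10.4, 16.4, 14.02, 15.2, 14.8, 17.5, 8.36, 8.43, 13.98 and 20.3 scaled CPM. Every tumor lay far below every mucosa library (-2.62 ± 0.20, adjusted p = 4.8e-07).

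Methionine synthase itself was higher in tumors. Mtr measured 3.48, 3.31 and 3.80 scaled CPM in mucosa and 4.38, 4.89 and 6.19 in tumors, with no overlap (0.54 ± 0.13, adjusted p = 0.0028). Its reductase Mtrr, which keeps the cobalamin of Mtr active, measured 4.80, 3.51 and 4.19 scaled CPM in mucosa and 4.66, 5.69 and 6.13 in tumors (0.41 ± 0.13, adjusted p = 0.013), with 9 tumors above all mucosa, and lost its call without mucosa 2 (0.29, adjusted p = 0.094). Both subunits of the enzyme that makes S-adenosylmethionine were lower. Mat2a, its catalytic subunit, was at 162, 240 and 203 scaled CPM in mucosa. Tumors 1 to 10 held 106.5, 115, 115, 119, 169, 161, 178, 146, 132 and 129 scaled CPM, and 8 of 10 tumors lay below the mucosa range (-0.56 ± 0.16, adjusted p = 0.0080). Mat2b, its regulatory subunit, was at 81.3, 86.2 and 87.3 scaled CPM in mucosa and at 45.4, 51.2 and 57.6 in tumors, with no overlap (-0.73 ± 0.08, adjusted p = 8.6e-06). The call for Mat2a was lost without mucosa 2 (-0.42, adjusted p = 0.068), without TMM scaling (-0.29, adjusted p = 0.15) and with the tumors of each mouse summed (-0.54, adjusted p = 0.053), where Mtrr (adjusted p = 0.052) and Shmt2 (adjusted p = 0.062) also lost theirs.

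Ahcy and Gnmt did not pass. Ahcy, which clears the S-adenosylhomocysteine left by each methyl transfer, measured 16.2, 23.0 and 21.3 scaled CPM in mucosa and 14.2, 18.0 and 21.9 in tumors (-0.16 ± 0.14, adjusted p = 0.34). Gnmt, a glycine methyltransferase best known from liver, measured 1.06, 0.614 and 0.508 scaled CPM in mucosa and 0.559, 1.05 and 1.39 in tumors (0.47 ± 0.30, adjusted p = 0.18), but passed without mucosa 1 (0.84, adjusted p = 0.044).

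The betaine arm of methionine synthesis was barely detected in either tissue. Bhmt and Bhmt2, the betaine and S-methylmethionine homocysteine methyltransferases, gave 1 and 7 UMIs over all cells of the 10 tumors, among 661024872 UMIs, and 20 and 5 over the 3 mucosa libraries, among 235489058. Dmgdh, dimethylglycine dehydrogenase, gave 9 and 29. That is 0.0015 CPM in tumors and 0.085 in mucosa for Bhmt, 0.0106 and 0.0212 for Bhmt2 and 0.0136 and 0.123 for Dmgdh, where a count of 0 allows up to 0.0045 and 0.013 CPM, counting error only. Dmgdh had UMIs in all 3 mucosa libraries and in 3 of 10 tumors, and Bhmt in 2 mucosa libraries and in 1 tumor. With no filter on low counts, edgeR gave Bhmt as lower in the epithelial sums (adjusted p = 0.0015) and both Bhmt and Dmgdh as lower over all cells (adjusted p = 2.9e-04 and 0.011), while DESeq2 called neither (adjusted p = 0.061 and 0.067 over all cells). Chdh, the choline dehydrogenase at the head of the route, was measured at 17.3, 15.6 and 15.8 scaled CPM in mucosa and 10.0, 12.3 and 17.9 in tumors, with 9 of 10 tumors below the mucosa (-0.36 ± 0.15, adjusted p = 0.048). Its call was lost without TMM scaling (-0.11, adjusted p = 0.50), with the tumors of each mouse summed (-0.30, adjusted p = 0.070), with the mouse as a block (adjusted p = 0.050) and without any mucosa library (adjusted p up to 0.15) or any of tumors 1, 2 and 4 to 9. Aldh7a1, which oxidises betaine aldehyde among other aldehydes, measured 9.02, 11.1 and 10.8 scaled CPM in mucosa and 9.37, 12.3 and 18.7 in tumors, and Sardh, sarcosine dehydrogenase, 0.851, 1.17 and 0.899 in mucosa and 0.172, 1.27 and 2.07 in tumors. Neither passed (adjusted p = 0.14 and 0.49), but Aldh7a1 passed as higher with the tumors of each mouse summed (0.40, adjusted p = 0.028) and without TMM scaling (0.62, adjusted p = 0.022).

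Of the 7 genes of DNA methylation and demethylation, 4 passed as higher and 0 as lower, against 33.4% and 30.1% of all genes. With the goblet-like clusters left out, Dnmt1 passed as lower (-0.45, adjusted p = 0.011). Dnmt3b, a de novo DNA methyltransferase, was at 1.74, 1.63 and 1.58 scaled CPM in mucosa. Tumors 1 to 10 held 3.70, 3.21, 3.72, 3.26, 4.99, 3.01, 4.30, 3.70, 4.34 and 2.32 scaled CPM, all above the mucosa (1.15 ± 0.21, adjusted p = 3.1e-04). Dnmt3a, the other de novo enzyme, was at 12.8, 12.7 and 13.4 scaled CPM in mucosa and at 11.1, 18.9 and 22.8 in tumors (0.51 ± 0.17, adjusted p = 0.018). Of the tumors, 9 were above the mucosa and tumor 10 was below it, and the call was lost without mucosa 1 or mucosa 2 (adjusted p = 0.056 and 0.064).

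The maintenance pair did not pass. Dnmt1, which copies methylation to the new strand, measured 42.8, 54.3 and 52.1 scaled CPM in mucosa and 33.2, 40.3 and 57.6 in tumors (-0.21 ± 0.14, adjusted p = 0.22). Uhrf1, which recruits Dnmt1 to hemimethylated sites, measured 16.2, 23.9 and 19.5 scaled CPM in mucosa and 15.95, 19.96 and 30.9 in tumors (0.08 ± 0.16, adjusted p = 0.69). Among the dioxygenases that oxidise 5-methylcytosine, Tet2 was at 12.7, 16.2 and 16.1 scaled CPM in mucosa and at 21.4, 28.9 and 36.5 in tumors, with no overlap (0.95 ± 0.15, adjusted p = 1.3e-04). Tet3 was at 27.0, 39.1 and 33.9 scaled CPM in mucosa and at 35.0, 48.6 and 57.9 in tumors, with 8 tumors above all mucosa (0.52 ± 0.15, adjusted p = 0.0070), and lost its call without mucosa 1 (0.39, adjusted p = 0.055). Tet1 was low, at 1.51, 0.721 and 0.957 scaled CPM in mucosa and 0.258, 1.41 and 2.94 in tumors (adjusted p = 0.45).

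Epithelial sums mix cell classes whose shares differ between the tissues. Tumor epithelial-like cells had a median share of 67.2% in tumors and 0.082% in mucosa, and goblet-like cells of 3.19% and 24.7%. The former hardly occur in mucosa and stay in the sums when goblet-like clusters are left out. With the goblet-like clusters left out, Folr1, Mthfd1 (-0.57, adjusted p = 0.0025), Atic (-0.51), Ahcy (-0.43) and Dnmt1 (-0.45) became lower and Gnmt higher (1.33, adjusted p = 0.0019), while Mthfd2 (-0.32, adjusted p = 0.15), Shmt2 (0.21, adjusted p = 0.17) and Chdh (-0.34, adjusted p = 0.063) lost their calls, the last at nearly the same fold change. To hold the class as constant as the clusters allow, levels were also read within clusters present in both tissues, as CPM over the cells of 1 cluster and with no test. Within cluster 17, an epithelial cluster of 1037 mucosa and 1957 tumor cells that took no class name, Cbs was at 29.0 to 46.3 CPM in mucosa and at 14.9, 18.2 and 29.0 in tumors, so that the ranges met at one end. Mat2b was at 68.3 to 78.3 CPM in mucosa there and at 49.0, 53.2 and 63.3 in tumors, without overlap. In cluster 21 Mat2b overlapped, at 45.5 to 53.1 CPM in mucosa and 31.3, 35.7 and 55.1 in tumors, with tumor 3 above all mucosa. Within cluster 17, Mtr was at 2.67 to 3.38 CPM in mucosa and at 3.90, 5.87 and 8.56 in tumors, and Tet2 at 10.3 to 14.7 CPM and at 15.3, 21.4 and 24.4, both in the direction of the sums. Tet2 overlapped between the tissues in cluster 21, at 20.7 to 27.0 CPM in mucosa and 18.2, 26.6 and 38.6 in tumors, and in cluster 16, at 9.37 to 12.4 and 5.66, 18.6 and 19.5. In cluster 17 Mthfd1l overlapped between the tissues, at 4.26 to 10.7 CPM and at 5.59, 8.42 and 18.1, as did Shmt2 (13.5 to 30.3 and 12.3, 18.9 and 24.6) and Dnmt3a (10.9 to 11.9 and 7.92, 11.2 and 13.97), so these members did not follow their sums in cluster 17. Fpgs, which did not overlap in the sums, overlapped in cluster 17, at 15.4 to 17.2 CPM in mucosa and 12.2, 15.7 and 23.5 in tumors. The ranges of Fpgs also overlapped in clusters 16, 21 and 24. Its medians in mucosa and tumors were 15.1 and 15.98 CPM in cluster 16, 1.14 and 0.35 in cluster 21 and 4.69 and 8.35 in cluster 24. Shmt1 overlapped in cluster 17, at 44.8 to 47.9 CPM in mucosa and 26.2, 35.3 and 51.1 in tumors. It also did so in cluster 16, at 13.3 to 19.7 and 6.53, 18.0 and 23.15. Chdh, lower in the sums, was higher in the tumors within goblet-like cluster 16, without overlap. It was at 11.7 to 14.5 CPM in mucosa there and at 16.3, 24.3 and 29.8 in tumors. In cluster 17 Chdh was at 13.4 to 20.6 CPM in mucosa and at 17.985, 23.1 and 32.9 in tumors, with ranges that overlapped. Its ranges also overlapped in clusters 21 and 24. In goblet-like cluster 16, with 7 tumors, Cbs was at 115 to 169 CPM in mucosa and 30.8, 59.5 and 114.5 in tumors and Mat2b at 69.9 to 77.4 and 49.9, 60.3 and 65.0, while Mtr overlapped (2.78 to 3.72 and 0.933, 3.25 and 5.58).

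Dnmt3b was at 1.59 to 2.48 CPM in mucosa and at 0.56, 1.19 and 1.97 in tumors within cluster 17, not higher as in the sums, and at 0.927 to 1.38 and 0, 2.80 and 5.14 within cluster 16, from 13 UMIs in the tumors. Its highest class in the tumors was the tumor epithelial-like one, at 5.11 ± 0.64 CPM (SD, n = 10), and this class held at most 11 cells in a mucosa library, so it cannot be compared between the tissues. In goblet-like cells, Cbs was at 126 ± 15 CPM in mucosa (n = 3) and 41.1 ± 20.1 in tumors (n = 9). Most goblet-like cells lay in cluster 16 in mucosa (3216 of 4178) and in cluster 24 in tumors (343 against 246 in cluster 16, counting only libraries where the cluster reached 20 cells). Cbs had means of 149.5 CPM in cluster 16 and 39.4 in cluster 24 of the mucosa, so the class values and the mix of clusters cannot be told apart. Within cluster 24 the tumors held 0, 10.5 and 19.9 CPM of Cbs against 26.3 to 46.6 in mucosa. In the tumor epithelial-like cells Cbs was at 10.8 ± 3.5 CPM. Slc46a1 had its highest tumor class in absorptive-like cells, at 42.3 ± 22.4 CPM (n = 10), followed by the other epithelial clusters at 5.82 ± 2.03, and the ranges over libraries overlapped. Within cluster 21, which holds 972 of the 974 absorptive-like cells of the tumors, it was at 0.57 to 6.96 CPM in mucosa and at 5.23, 40.0 and 79.6 in tumors, with tumor 6 the lowest. Cbs in that cluster was at 3.37 to 5.42 CPM in mucosa and had no UMI in any tumor, which allows up to 0.264 CPM over the 11347731 UMIs of the cluster in tumors.

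**Figure D3:**
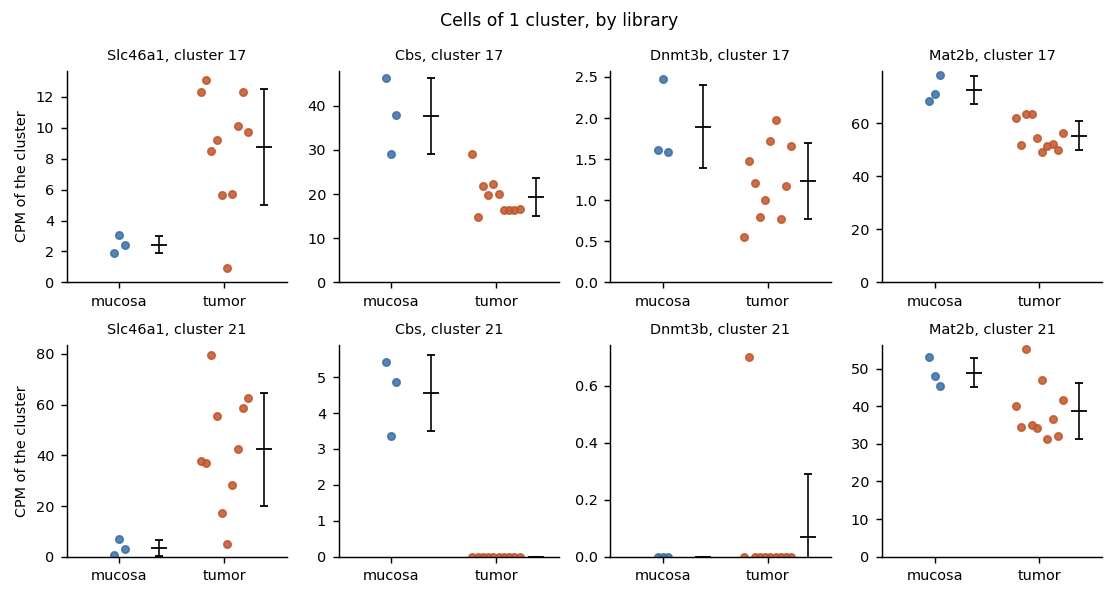
Level, in CPM of the cluster, of Slc46a1, Cbs, Dnmt3b and Mat2b within epithelial clusters 17 (upper row) and 21 (lower row), with 1 point per library and bars for the mean with its SD. Mat2b lies lower in the tumors within cluster 17, Dnmt3b does not lie higher there, and Slc46a1 reaches 79.6 CPM within cluster 21, where Cbs is at 0 in all 10 tumors.

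Cluster 25, named enteroendocrine-like from its markers, held 168 of the 218 Folr1 UMIs of the mucosa and 63 of the 91 of the tumors. In mucosa Folr1 was at 52.5 ± 6.3 CPM there (n = 3) and at most 0.31 in any other class. After this was seen, the cells of that cluster were split by whether enteroendocrine or tuft cell markers led, tuft cells being chemosensory epithelial cells. All 168 Folr1 UMIs of the mucosa cluster lay in the 199 cells led by tuft markers, 56 of which had at least 1. None of the 293 cells led by enteroendocrine markers had any, which allows a share of cells with a UMI of up to 1.02% and sets no limit on cells that express the gene, and their median depth was 3280 UMIs against 8313. A further 325 mucosa cells of the cluster, where the markers tied, had no Folr1 UMI either, at a median depth of 583 UMIs. Tumor 6 held 37 cells of this cluster, 32 of them led by tuft markers, and these gave 52 of its 54 epithelial Folr1 UMIs. Over all tumors, 15 of 41 cells led by tuft markers had a Folr1 UMI, at 301 CPM over these cells against 103 in mucosa. Cluster 25 made up 4.73 to 6.03% of the epithelial cells in mucosa and a median of 0.226% in tumors. The part of this share in the tissue difference of Folr1 was not tested.

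Several members are known to be expressed with DNA synthesis, so epithelial cells were called cycling when they held at least 5 UMIs of 92 cycle genes, with Tyms and Uhrf1 taken out of that list, after each cell was thinned to 2000 UMIs. By this measure 34.6 to 51.5% of epithelial cells cycled in tumors and 41.3 to 58.2% in mucosa, against 81.3 to 90.1% and 91.4 to 92.8% without thinning. Cells under 2000 UMIs, 1249 in tumors and 839 in mucosa, were left out, and 2666 and 2584 cells lay at 4 or 5 UMIs, next to the limit. Median depths were 10886 to 18812 UMIs in cycling and 7813 to 13998 in non-cycling cells of the tumors.

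Within library, 24 of 30 members tested differed between cycling and non-cycling epithelial cells, 16 (53.3%) higher and 8 (26.7%) lower in cycling cells. Over all genes 71.4% differed, 3994 (30%) higher and 5509 (41.4%) lower of 13309. The median log2 difference was 0.51 over the members and -0.08 over all genes. Without TMM scaling the split over all genes moved from 3994 higher and 5509 lower to 5232 and 4122, the median over all genes to 0.05 and the members to 17 and 6. Cycling state was defined by cycle genes in the same cells, so a rise of genes that follow the cycle is part of how the groups were made.

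Uhrf1 stood out most, at 29.9 to 34.6 scaled CPM in cycling and 1.85 to 2.60 in non-cycling cells of the mucosa and at 31.4, 36.2 and 56.3 against 1.96, 3.08 and 5.21 in tumors, a log2 difference of 3.70 ± 0.12. Tyms was at 126 to 173 against 35.4 to 39.5 scaled CPM in mucosa and at 78.2, 98.0 and 135 against 14.6, 19.5 and 29.6 in tumors (2.19 ± 0.07). Dnmt1 was at 65.4 to 75.9 against 15.4 to 18.6 scaled CPM in mucosa and at 56.7, 63.7 and 93.2 against 14.6, 16.5 and 21.6 in tumors (2.02 ± 0.07). For these 3 genes, cycling cells lay above non-cycling cells in 13 of 13 libraries with no overlap between the groups. Mthfd1 (1.40 ± 0.06), Shmt1 (1.27 ± 0.05), Shmt2 (1.15 ± 0.06), Mtr (1.01 ± 0.09), Gart (0.95 ± 0.07), Atic (0.88 ± 0.04), Ahcy (0.84 ± 0.06) and Slc19a1 (0.83 ± 0.08) were also higher in cycling cells in all 13 libraries. Dnmt3b was higher in 12 of 13 (0.77 ± 0.13).

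The members that were lower in cycling cells were Sardh (-1.09 ± 0.13), Ggh (-1.01 ± 0.07), Slc46a1 (-0.77 ± 0.15), Tet2 (-0.56 ± 0.05), Chdh (-0.46 ± 0.08), Gnmt (-0.44 ± 0.14), Tet3 (-0.33 ± 0.04) and Mat2b (-0.10 ± 0.04). Ggh, Sardh, Tet2 and Tet3 were lower in 13 of 13 libraries, Slc46a1 in 12, Gnmt in 10 and Chdh in 9. For Chdh the mucosa libraries were at 11.5 to 12.7 against 21.4 to 22.8 scaled CPM, while 6 tumors were lower and 4 higher in cycling cells (cycle-by-tissue term 0.84). Gnmt kept its call in 16 of 23 alternatives and lost it with DESeq2 (-0.45, adjusted p = 0.076) and without TMM scaling (-0.31, adjusted p = 0.059). Mat2b was lower in 8 of 13 libraries and higher in 5, and kept its call in 8 of 23 alternatives. It turned to 0.022 without TMM scaling and Mat2a, at -0.0043 with it, to 0.12 (adjusted p = 0.021). Cbs did not pass over both tissues (0.04 ± 0.11, adjusted p = 0.76), and its direction differed between them (cycle-by-tissue term 0.78, adjusted p = 0.012). The call for this term was not kept in every alternative. In mucosa it was lower in cycling cells in all 3 libraries, at 65.7, 80.0 and 78.5 against 118, 85.2 and 85.4 scaled CPM, and in tumors it was higher in cycling cells in 8 of 10.

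**Figure D4:**
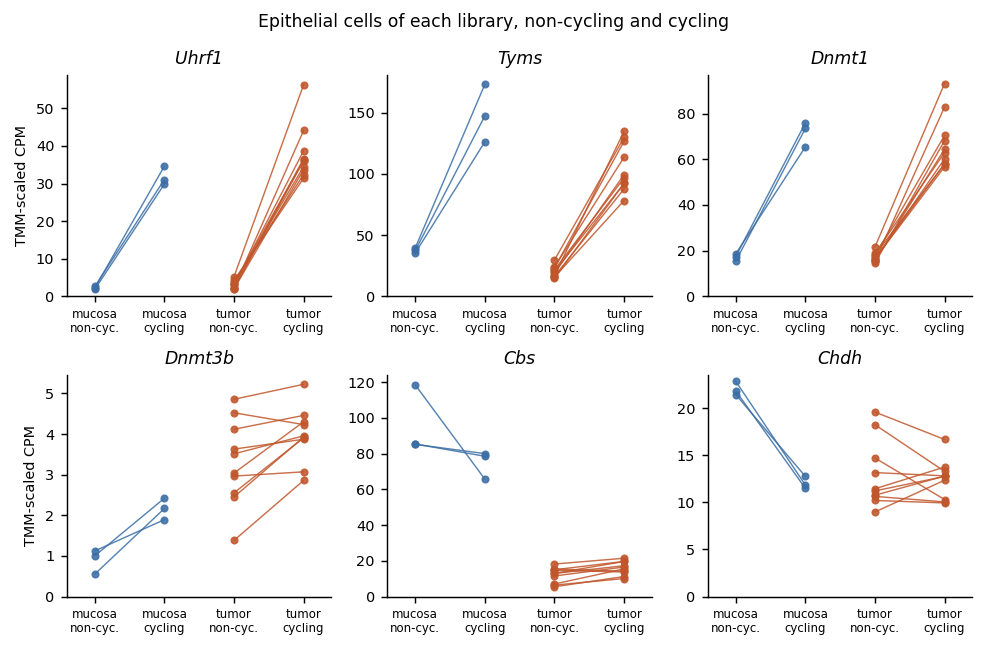
Level of 6 members in non-cycling and cycling epithelial cells, in TMM-scaled CPM, with a line joining the values of each library, mucosa on the left and tumor on the right of each panel. For Uhrf1 every line climbs from between 1.85 and 5.21 in non-cycling cells to between 29.9 and 56.3 in cycling cells.

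The start-site windows of the members that differed most with the cycle, and of Cbs, which differed most between the tissues among the members that passed in the epithelial sums, were read from RefSeq on GRCm38.p6. Each is 300 bases long and written 5′ to 3′ on the strand of the gene. Capitals mark the motifs searched for on both strands, namely an E2F-like motif written TTTCGCGC or TTTGGCGC, the E-box CACGTG and an ATF4-like motif TGATGNAA, and GCGCGAAA is the first read on the other strand. Of the 2 windows of Uhrf1 and the 3 of Dnmt1, the ones printed were chosen because they alone hold a motif. Uhrf1 is shown at chr17:56304063-56304362 (plus strand), Dnmt1 at chr9:20952574-20952873 (minus), Tyms at chr5:30073576-30073875 (minus) and Cbs at chr17:31637156-31637455 (minus).
Uhrf1: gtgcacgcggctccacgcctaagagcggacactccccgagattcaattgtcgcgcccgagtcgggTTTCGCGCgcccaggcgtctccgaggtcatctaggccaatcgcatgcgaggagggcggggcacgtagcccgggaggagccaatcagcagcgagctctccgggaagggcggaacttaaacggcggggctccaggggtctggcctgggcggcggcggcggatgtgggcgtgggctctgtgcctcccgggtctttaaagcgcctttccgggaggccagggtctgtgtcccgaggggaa
Dnmt1: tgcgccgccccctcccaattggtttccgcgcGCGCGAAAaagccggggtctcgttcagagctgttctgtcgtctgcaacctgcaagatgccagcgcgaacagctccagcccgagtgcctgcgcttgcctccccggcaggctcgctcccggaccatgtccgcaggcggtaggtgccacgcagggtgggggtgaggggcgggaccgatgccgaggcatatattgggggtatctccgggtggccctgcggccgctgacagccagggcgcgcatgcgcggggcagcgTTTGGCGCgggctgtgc
Tyms: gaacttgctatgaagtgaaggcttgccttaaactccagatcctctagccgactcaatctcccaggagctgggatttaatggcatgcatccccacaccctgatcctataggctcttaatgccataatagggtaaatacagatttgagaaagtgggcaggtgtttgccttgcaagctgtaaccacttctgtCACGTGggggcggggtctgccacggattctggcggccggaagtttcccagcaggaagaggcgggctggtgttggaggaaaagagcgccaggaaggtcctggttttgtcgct
Cbs: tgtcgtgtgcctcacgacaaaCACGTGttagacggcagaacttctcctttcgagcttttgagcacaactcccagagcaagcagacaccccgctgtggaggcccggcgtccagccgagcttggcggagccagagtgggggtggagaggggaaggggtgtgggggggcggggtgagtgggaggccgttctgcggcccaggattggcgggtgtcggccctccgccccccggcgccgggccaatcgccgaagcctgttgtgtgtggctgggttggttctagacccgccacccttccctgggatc
The E2F-like motif lay in windows of 2 of the 31 members that have one, Uhrf1 and Dnmt1, and in those of 0.929% of 27025 genes. The E-box lay in windows of 4 members (Atic, Cbs, Dnmt3a and Tyms) and of 8.09% of genes. The ATF4-like motif lay in none of the members' windows and in those of 4.51% of genes. These matches describe the letters alone, and factor binding was not measured.

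Comparing the tissues at like cycle state, 17 of 31 members differed in cycling cells, 7 higher and 10 lower in tumors, against 59.3% of all genes, 31.3% higher and 28.0% lower. In non-cycling cells 17 of 30 differed, 10 higher and 7 lower, against 64.2%, 33.8% and 30.4%. Without TMM scaling the splits over all genes were 5674 higher and 2786 lower in cycling and 6843 and 2726 in non-cycling cells, in place of 4401 and 3930 and of 4883 and 4387, with 12 and 3 and with 14 and 5 members. Cbs was lower in tumors in both (-2.25 ± 0.18 and -2.99 ± 0.27), as were Mat2b (-0.67 and -0.78) and Tyms (-0.53 and -0.88). The call for Tyms in cycling cells was lost without TMM scaling (-0.34, adjusted p = 0.068), mucosa 3 (-0.40, adjusted p = 0.080), mouse A (adjusted p = 0.057) or mouse B (adjusted p = 0.064). Dnmt3b (0.86 and 1.90), Tet2 (0.97 and 0.89), Mthfd1l (0.70 and 0.63), Mtr (0.46 and 0.97) and Slc46a1 (1.599 and 1.92) were higher in both. The call for Mtr in cycling cells was lost with a limit of 10 cycle UMIs (0.31, adjusted p = 0.091) and without mucosa 2 (0.38, adjusted p = 0.058), mouse A or mouse C, and those for Mthfd1l were lost without mouse A (adjusted p = 0.060 and 0.074). Dnmt1 and Uhrf1 passed in neither, with adjusted p = 0.50 and 0.18 in cycling cells and 0.91 and 0.14 in non-cycling cells. Without TMM scaling, Uhrf1 passed as higher in both (0.42 and 0.85, adjusted p = 0.028 and 0.025) and Dnmt1 in non-cycling cells (0.35, adjusted p = 0.021). With the mouse as a block, Folr1 (-2.90, adjusted p = 0.034) and Shmt2 (0.40, adjusted p = 0.023) passed in cycling cells, Atic no longer did (-0.34, adjusted p = 0.063), and Fpgs passed in non-cycling cells (-0.45, adjusted p = 0.049). With the tumors of each mouse summed, Folr1 passed as well (adjusted p = 0.029), and Shmt2 (0.079) and Fpgs (0.17) did not.

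The tissue difference itself changed with cycle state for 11 of 30 members by the cycle-by-tissue term, 4 with a positive and 7 with a negative term, against 37.7% of all genes, 23.9% and 13.8%. This split depends on the scaling, since without TMM it was 2 and 9 among the members and moved from 3183 and 1839 to 1467 and 3563 among all genes. Shmt2 was 0.35 higher in the tumors on the log2 scale in cycling cells and 0.92 higher in non-cycling cells (term -0.53 ± 0.12, adjusted p = 0.0021). Dnmt3b showed the widest negative term (-0.96 ± 0.26, adjusted p = 0.0069), and Chdh the widest positive one (0.84 ± 0.16, adjusted p = 4.3e-04), being 0.76 lower in tumors among non-cycling cells and 0.033 higher among cycling ones. The term for Dnmt3b was lost without mucosa 2 (-0.70, adjusted p = 0.064), and the count of members fell to 6 without that library. Cell classes had unlike shares in the epithelium of the tissues, and their part in this term was not tested.

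Summed over all retained cells, with no clusters needed, 21 of 31 members differed, 5 higher and 16 lower in tumors, against 70.0% of all genes, 36.3% higher and 33.8% lower, with a median of -0.43 over the members. Without mucosa 3 the members were 2 higher and 16 lower, without mucosa 2 they were 3 and 14, and without mouse A 3 and 13. In such sums fewer cells of a type and less RNA per cell cannot be told apart, and the epithelial share was lower in every tumor than in any mucosa library. Tet2 (1.74 ± 0.16), Slc46a1 (1.16 ± 0.39), Mtr (0.98 ± 0.11), Dnmt3b (0.46 ± 0.18) and Dnmt3a (0.45 ± 0.17) were the 5 that were higher. The call for Dnmt3a was lost without any 1 of the mucosa libraries (adjusted p = 0.085, 0.074 and 0.055), that for Dnmt3b without mucosa 2 or 3 (adjusted p = 0.103 and 0.076) and that for Slc46a1 without mucosa 3 (1.03, adjusted p = 0.077). Dnmt1 (-0.52 ± 0.09) and Uhrf1 (-0.48 ± 0.13), which did not pass in the epithelial sums, were lower here, the latter not without mucosa 2 (-0.30, adjusted p = 0.069). With the mouse as a block, Mthfd2 passed as well (-0.28, adjusted p = 0.028), but not with the tumors of each mouse summed (adjusted p = 0.22), where Dnmt3b (0.070) and Uhrf1 (0.080) lost their calls.

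To place the members among the cells of the tumors, tumor epithelial-like cells were compared with all immune cells of the same tumor. Of 30 members tested, 29 differed, 24 higher and 5 lower in the epithelial cells, against 88.0% of all genes, 45.7% higher and 42.3% lower. The median difference was 1.16 over the members and 0.06 over all genes. Without TMM scaling the split over all genes moved from 6589 and 6093 to 9894 and 3433, the median over all genes to 0.92 and the members to 26 and 4. The members took no part in the clustering, but genes that go with them did. The immune sum pools unlike classes, of which neutrophil-like cells were the largest by cells, with 26111 in the tumors. Between these classes Dnmt1 ran from 3.60 CPM in neutrophil-like to 59.6 in T cell-like cells. The sums were not matched for cycle state, and the part of this and of the mix of classes was not tested.

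Cbs had the widest difference, at 4.57, 7.53 and 11.4 scaled CPM in the epithelial cells and 0.117, 0.225 and 0.421 in the immune cells (5.04 ± 0.18). Sardh (3.74 ± 0.27), Shmt1 (3.60 ± 0.12), Tet1 (3.15 ± 0.20), Chdh (3.05 ± 0.16) and Ahcy (2.31 ± 0.12) followed. Shmt1 lay at 14.2, 22.0 and 28.6 scaled CPM in epithelial and 1.21, 1.84 and 2.51 in immune cells, with no overlap. The 5 members higher in immune cells were Ggh (-1.66 ± 0.11), Tet2 (-1.54 ± 0.06), Mtr (-1.47 ± 0.08), Mthfd2 (-1.20 ± 0.08) and Mat2b (-0.67 ± 0.06), of which Mat2b turned to 0.19 without TMM scaling. Dnmt3a was at 12.6, 18.4 and 21.2 scaled CPM in epithelial and 11.2, 16.8 and 23.6 in immune cells and did not pass (0.05 ± 0.06, adjusted p = 0.42), but passed as higher in epithelial cells without TMM scaling (0.92, adjusted p = 7.4e-09).

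**Figure D5:**
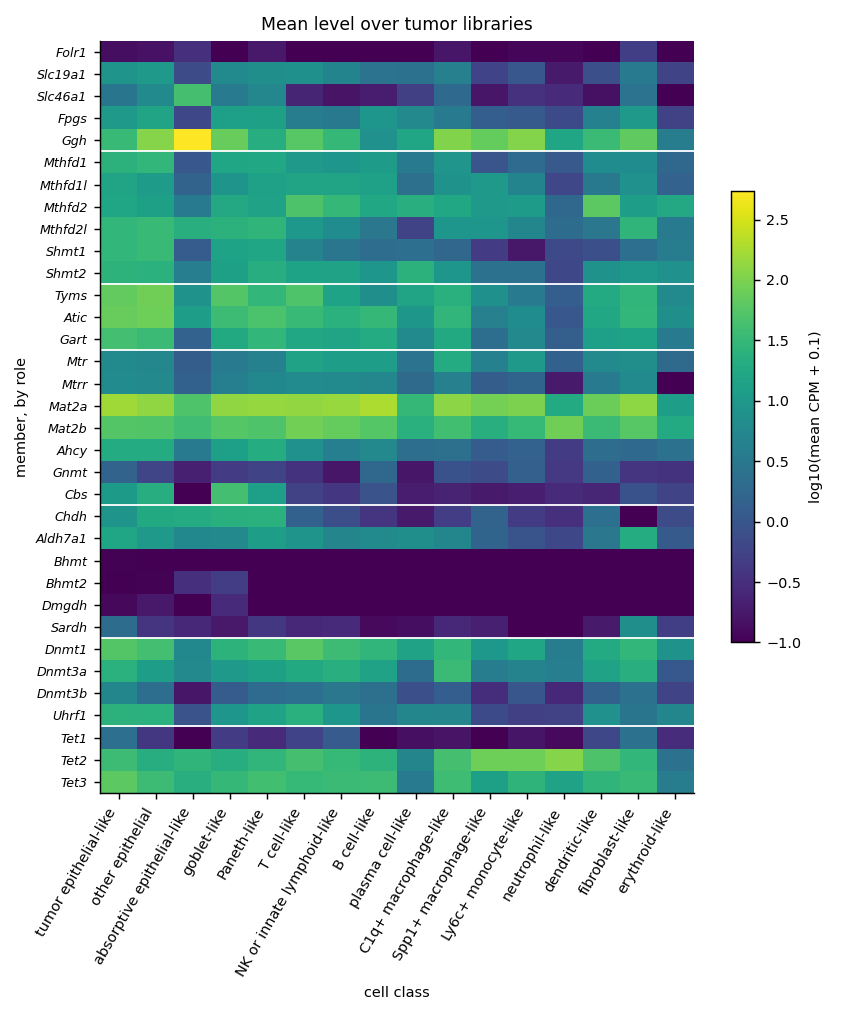
Level of the 34 members (rows, by role) in each cell class of the tumors (columns), as log10 of the mean CPM over libraries plus 0.1 in colour. Tet2 peaks in neutrophil-like cells at 114 CPM, Mtr in C1q+ macrophage-like cells at 19.6, Mthfd2 in dendritic-like cells at 61.1 and Ggh in absorptive-like cells at 543.

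By class, in CPM, 7 members had their highest mean in tumor epithelial-like cells and 7 in the other epithelial clusters of the tumors, with ranges that overlapped the second class for all 14, and Bhmt among the former rests on 1 UMI. Tet2 was highest in neutrophil-like cells, at 114 ± 17 CPM (SD, n = 10), above Ly6c+ monocyte-like cells at 80.4 ± 13.9 and tumor epithelial-like cells at 36.3 ± 5.7, and the ranges of the first and second class did not overlap. Mtr led in C1q+ macrophage-like cells at 19.6 ± 3.8 CPM, followed by T cell-like cells at 14.2 ± 3.2, with overlapping ranges. Mthfd2 led in dendritic-like cells (61.1 ± 18.6) and T cell-like cells (48.6 ± 9.1), which overlapped, and was at 15.5 ± 2.4 CPM in tumor epithelial-like cells. Mat2a led in B cell-like cells (188 ± 52) and tumor epithelial-like cells (158 ± 32), again overlapping, and Mat2b in T cell-like cells (86.6 ± 7.6).

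Tet3 had its highest mean in tumor epithelial-like cells, at 61.9 ± 5.6 CPM, against 40.0 ± 13.1 in Paneth-like cells. Dnmt1 was highest in T cell-like cells, at 59.6 ± 7.7 CPM, with tumor epithelial-like cells at 53.7 ± 12.5, and Dnmt3a was at 34.7 ± 11.1 in C1q+ macrophage-like cells, against 24.3 ± 2.6 in the tumor epithelial-like class. Ggh was highest in absorptive-like cells, at 543 ± 331 CPM in tumors and 328 ± 203 in mucosa, but cluster 21 held 972 of the 974 cells of this class in tumors and 1000 of 3251 in mucosa. Within cluster 21 Ggh was at 521 to 835 CPM in mucosa and at 223, 475 and 1289 in tumors, with means of 645 and 544. Sardh was highest in fibroblast-like cells, at 7.17 ± 4.61 CPM over 7 tumors. In the tumors the highest and second class overlapped in range for each of these 5 genes. In plasma cell-like cells of the tumors, immunoglobulin genes took 57.0% of the UMIs, and their part in the levels of the members there was not tested.

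In lymphocytes the tissues could be compared at lower depth. Among T cell-like cells, with 2 mucosa libraries, 3 of 23 members tested differed, 1 higher and 2 lower in tumors, against 15.0% of all genes, 8.49% higher and 6.52% lower (507 and 1050 genes without TMM scaling, in place of 807 and 620, with 0 and 2 members). Tyms was at 132 and 167 scaled CPM in mucosa and 23.7, 51.8 and 82.6 in tumors, Dnmt1 at 91.8 and 127 and at 52.4, 60.3 and 71.8, both lower, and Tet2 at 16.5 and 30.6 and at 34.4, 42.5 and 59.1, higher. None of the 3 passed without mucosa 1 (adjusted p = 0.14, 0.28 and 0.55), which leaves 1 mucosa library, so that the spread then comes from the tumors alone. The T cell-like class joined clusters 8 and 31. Cluster 31, with Nusap1 and histone genes among its leading genes, gave 57 of 252 mucosa cells and 226 of 4376 tumor cells. Cluster 7, with Cd160 and Tcrg-C1 among its leading genes, held 4327 mucosa and 71 tumor cells and took no class name. The part of these mixes in the differences was not tested. Among B cell-like cells, 1 of 8 members tested differed, higher in tumors, against 39.8% of all genes, 17.6% higher and 22.2% lower. It was Mat2a, at 72.5 to 90.6 scaled CPM in mucosa and 108, 187 and 287 in tumors (adjusted p = 8.4e-05), the reverse of its direction in the epithelial sums.

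Between the 3 mice, the epithelial sums of the tumors differed for 1 of 30 members, against 0.465% of all genes. Mat2a was at 154 to 186 scaled CPM in the tumors of mouse A, 134 to 136 in mouse B and 111 to 125 in mouse C (adjusted p = 0.0493). This call was lost without any 1 of tumors 1 to 8, and with RLE size factors, no filter on low counts, a mitochondrial limit of 10% or the goblet-like clusters left out. The mice also differ in age, which cannot be told apart from the animal.

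Of 68 further genes of the same pathways, 62 were tested in the epithelial sums and 34 passed, 14 higher and 20 lower in tumors, a share of 54.8% against 63.6% of all genes. The 6 with the lowest p-values were Cth, Gadd45b, Mtap, Dld, Ahcyl2 and Lmbrd1. Cth, which follows Cbs on the route to cysteine, was at 61.2 to 83.3 scaled CPM in mucosa and 6.74, 9.93 and 14.4 in tumors (-2.80 ± 0.17, adjusted p = 8.3e-08). Mtap, which salvages methylthioadenosine to methionine, was at 5.42 to 9.15 scaled CPM in mucosa and 28.0, 43.0 and 55.5 in tumors (2.52 ± 0.22). Gadd45b, a stress gene linked to DNA demethylation, was at 24.3 to 33.8 and at 90.1, 115 and 144 scaled CPM (2.04 ± 0.18). Dld, a dehydrogenase subunit of the glycine cleavage system (-1.08 ± 0.11), Ahcyl2, a relative of Ahcy (-1.44 ± 0.15), and Lmbrd1, which exports cobalamin from the lysosome (-0.71 ± 0.07), were lower. By list, the genes passing were 5 of 8 of other folate cycle genes, 2 of 7 of serine and glycine supply, 5 of 8 of vitamin B12 handling, 5 of 9 of methionine, transsulfuration and polyamine genes, 6 of 7 of choline and betaine transport, 5 of 9 of purine and pyrimidine partners and 6 of 14 of methylation readers and partners. In cycling against non-cycling cells 50 of 61 differed, 29 (47.5%) higher and 21 (34.4%) lower, in groups made by cycle genes, against 30% and 41.4% of all genes. Among the genes higher in cycling cells, Rrm1 and Rrm2 also belong to the cycle genes, so their rise is part of how the groups were made.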

How the data were processed

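Droplet scRNA-seq of 10 colon tumors and 3 adjacent mucosa samples was analysed. The authors aligned and counted reads with Cell Ranger on the mm10 build and deposited unnormalized UMI counts per gene and cell for each library. The submitters' processing notes and the file headers name version 6.0.0, the study's methods an earlier one, and the annotation release is not given in the sources used here. The members and all gene lists were chosen with earlier results of these data known.

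Barcodes with at least 500 UMIs, 200 genes and under 25% mitochondrial UMIs were kept, and those with the highest doublet scores were removed, 0.8% per 1000 barcodes. Cells of all libraries were clustered together (2000 variable genes without the members and 68 other pathway genes, 30 components, 20 neighbors, leidenalg 0.10.2 at resolution 1), with no integration. Classes were named, with the ending -like, from marker lists, and cell types are rebuilt, not the authors'. The leading genes of the enteroendocrine-like cluster also included Trpm5 and Dclk1, known from tuft cells.

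UMIs were summed per library and tested in edgeR 4.0.16 (R 4.3.3) with TMM scaling, filterByExpr and the quasi-likelihood test, tissue as the only term, or library as a block for comparisons within library. Classes needed at least 20 cells in a library. Standard errors are of the log2 fold change, taken as its absolute size over the square root of the F statistic of the test. In the epithelial sums a member past an adjusted p of 0.05 with an absolute log2 fold change of at least 1, and Mat2a, which passed in opposite directions in epithelial sums and B cell-like cells, is given in every library (Gart, lower over all cells and higher in non-cycling cells, and the others by the 3 mucosa values and the lowest, median and highest tumor). Of the other pathway genes, the 6 with the lowest p are named. Each library counts as a sample although up to 4 tumors came from 1 mouse, so p-values rest partly on related tumors. The animal code, not the replicate number, pairs tumor and mucosa. As a check of this pairing, the deviation of each mouse's tumors from the tumor mean was set against that of its own mucosa in the epithelial sums, with r = 0.13, 0.076 and 0.21 for mice A, B and C (over genes, which do not count as replicates). Against the mucosa of another mouse r was -0.23 to 0.10, and the tumors of mouse B stood closer to the mucosa of mouse A (0.10) than to their own. Deviations from a mean over the mice cancel out, so a positive value with the own mucosa pushes the others down. The contrast is therefore partly built in and does not settle the pairing. The scripts were tested on simulated data with known changes. Intervals and limits of a count of 0 cover counting error only.

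Alternatives were RLE scaling, no low-count filter, DESeq2 1.42.0, a mitochondrial limit of 10%, doublets kept, a cycle limit of 10 UMIs, goblet-like clusters left out, the mouse as a block, the tumors of each mouse summed, each library or mouse left out and, added after seeing the data, library sizes without TMM. Not all of them were run in every comparison. Promoter windows came from RefSeq on GRCm38.p6, where 31 of 34 members matched and Aldh7a1, Folr1 and Ggh had none.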

Additional observations from a re-analysis of the deposited data

Results flagged for a closer look

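Within the 10 tumors, 3 of 31 members had 1 library apart from the rest by Dixon's test at its 95% critical value, which chance flags in about 1 of 20 groups. Folr1 reached 2.11 scaled CPM in tumor 6, where the next highest tumor was at 0.186 and the median at 0.070. Slc19a1 was at 11.1 scaled CPM in tumor 3 (next 9.11, median 7.67), and Ggh was at 161 scaled CPM in the same tumor (next 99.2, median 65.5).

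For 11 members the difference between tumor and mucosa differed between cycling and non-cycling epithelial cells by the interaction term of the edgeR fit, given here on the log2 scale as cycling minus non-cycling. The 7 negative terms were -0.96 for Dnmt3b (adjusted p = 0.0069), -0.53 for Shmt2 (0.0021), -0.46 for Atic (3.6e-04), -0.46 for Mtr (0.047), -0.38 for Shmt1 (0.011), -0.34 for Gart (0.048) and -0.30 for Dnmt3a (0.023). The 4 positive terms were 0.84 for Chdh (4.3e-04), 0.78 for Cbs (0.012), 0.41 for Tyms (0.023) and 0.36 for Mat2a (0.0023). The tissue difference of Atic was -0.35 in cycling cells, where it passed its own test, and 0.18 in non-cycling cells, where it did not. Its call in cycling cells was lost in 14 of 25 alternatives, among them no TMM scaling (-0.16, adjusted p = 0.30) and the tumors of each mouse summed (-0.33, adjusted p = 0.20), and without TMM scaling it passed as higher in non-cycling cells (0.52, adjusted p = 5.1e-04). That of Chdh was 0.033 and -0.76. Shmt2, Atic and Chdh alone kept their terms in every alternative, and the term of Tyms was lost without any of mucosa 1, mucosa 2 and tumors 1, 3, 5, 6, 7, 9 and 10.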

How the results depend on the processing

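Of 5800 recomputed values, 5441 were counted as unchanged, 251 lost a call, 101 gained one and 3 changed sign. A change of sign was counted only where the value passed with or without the alternative. The remaining 4 were levels in tumor epithelial-like cells that were counted as moved. With a mitochondrial limit of 10%, Tet2 went to 29.8 and Tet3 to 55.8 CPM, both by more than 1 SD. Bhmt2 was counted with that limit and with doublets kept, but it had no UMI in these cells and stayed at 0. The sign changes so counted came without TMM scaling, for Mat2a (0.12) and Mat2b (0.022) in cycling against non-cycling cells and for Mat2b in tumor epithelial-like against immune cells (0.19). Calls present in every alternative were 8 of 19 in the epithelial sums, 13 of 21 in all cells, 7 of 17 in cycling and 9 of 17 in non-cycling cells, 22 of 24 for cycling against non-cycling, 3 of 11 for the interaction, 25 of 29 for epithelial against immune, 0 of 3 in T cell-like and 1 of 1 in B cell-like cells. These counts rest on unlike sets of alternatives. The mouse as a block and the tumors of each mouse summed were run only for tumor against mucosa. Goblet-like clusters were left out only for the epithelial sums and the difference between mice. Leaving out 1 library or mouse at a time gave 13 (without mucosa 2) to 19 members in the epithelial sums, 16 (without mouse A) to 22 in all cells, 10 to 19 in cycling cells (17 with all libraries, 10 without mouse A, 11 without mouse B or mucosa 2), 10 (without mouse A) to 19 in non-cycling cells, 6 (without mucosa 2 or mouse A) to 12 for the interaction, 0 (without mucosa 1) to 4 in T cell-like cells with 1 without mouse C, 1 to 4 (without mouse C) in B cell-like cells, and 0 to 2 for the difference between mice, 0 without any of tumors 1 to 8 and 2 without tumor 9. In B cell-like cells DESeq2 and no low-count filter gave 4 members each and the summed tumors 3, and the difference between mice, Mat2a, went to 0 members with RLE factors, no filter, a mitochondrial limit of 10% and goblet-like clusters left out. With the mouse as a block, Folr1 passed in the epithelial sums (-2.73, adjusted p = 0.030) and in cycling cells (-2.90), Mthfd2 in all cells, Shmt2 in cycling and Fpgs in non-cycling cells, and Chdh in the epithelial sums (-0.35, adjusted p = 0.050) and Atic in cycling cells lost their calls, and no other call of a member changed under this block. The causes of these changes were not tested. For Bhmt and Dmgdh, with at most 29 UMIs in either tissue, the call depends on the filter and the tool.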
